A study of Mus musculus with 8 samples.

Results

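The genes described here encode the enzymes and the chaperone that hydroxylate, fold and cross-link collagen. They were taken from a list of 10 genes: Lox, Loxl1, Loxl2, Loxl3, Plod1, Plod2, Plod3, P4ha1, P4ha2 and Serpinh1. A probe set, the group of array probes that reports 1 transcript, was included where the platform annotation named exactly 1 gene symbol and that symbol was on the list. This gave 14 of the 22690 probe sets on the array, for 9 of the 10 genes. The 1 probe set that names Loxl2 also names a second symbol, so Loxl2 was not described. RNA came from diaphragm, the main breathing muscle, of 8-week-old mice. 4 arrays carried muscle of normal mice, the controls for dy/dy, and 4 carried muscle of dy/dy mice, whose laminin-deficient muscular dystrophy weakens the attachment of fibres to their basement membrane. Each array held muscle pooled from 3 mice, so 12 mice stood behind each group, and the pool was the unit of replication. The sources used here give neither strain background nor sex.

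Collagen chains are modified first inside and then outside the cell. In the endoplasmic reticulum, prolyl 4-hydroxylases hydroxylate prolines, which stabilises the triple helix, lysyl hydroxylases hydroxylate lysines, and the chaperone Hsp47 binds the folded procollagen. After secretion, lysyl oxidase and its relatives oxidise lysines and hydroxylysines, and the products form the covalent cross-links that give fibrils their strength. Cross-links that start from hydroxylated lysines are the more stable kind and are associated with fibrosis, the build-up of scar matrix that replaces dystrophic muscle.

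The defining skeletal muscle markers were bright in every pool. The summed signal of 10 of them, Acta1 and Ckm among these, lay at 157930 to 235200 in normal and 152680 to 174050 in dystrophic pools. The median signal per array was 172 to 207 after rescaling. On the first principal component the extreme arrays were normal replicate 4, at -36.1, and dystrophic replicate 3, at 34.0. Dystrophic replicate 3 also had a summed signal of 62935 for 9 liver markers, against 1515 to 7196 in the other 7 pools. The 10 fibroblast markers, all of which were tested, summed to 29730 to 36890 in normal and 42995 to 54989 in dystrophic pools, with no overlap, and 3 of the 10 rose, where 0.645% of all tested genes passed in either direction. The 10 macrophage markers summed to 4497 to 5830 in normal and 7999 to 9563 in dystrophic pools, again with no overlap, and 3 of the 9 that were tested rose, beside the same 0.645%. In whole muscle a change in the number of cells of a type and a change in RNA per cell cannot be told apart. The part of these markers in the member values was not tested.

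No hydroxylation or cross-linking gene passed the test between dystrophic and normal diaphragm. limma called 0 of 13 tested member probe sets at an adjusted p under 0.05, against 0.494% of all tested probe sets. At that share 0 of 13 does not set the members apart. The 14th probe set was too dim to be tested. At an unadjusted p under 0.05 there were 4 of the 13, for Lox (both tested probe sets), Loxl1 and Plod2, all higher in dystrophic pools, where 5.6% of all tested probe sets met that mark in that direction. Of the 13 log2 differences, dystrophic minus normal on the scale of log2(signal + 16), 9 lay above 0 and 4 below. Their median was 0.27, beside -0.01 over all tested probe sets. The differences ran from -0.29 to 0.78. The tested lysyl oxidase probe sets lay above 0, with Lox at 0.49 and 0.78, Loxl1 at 0.47 and Loxl3 at 0.04. The member probe sets of prolyl 4-hydroxylase lay below 0, with P4ha1 at -0.28 and -0.21 and P4ha2 at -0.29. The lysyl hydroxylases lay on both sides, with Plod2 at 0.45 and 0.54, Plod3 at 0.27 and Plod1 at -0.19. A difference between roles was not tested.

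**Figure D1:**
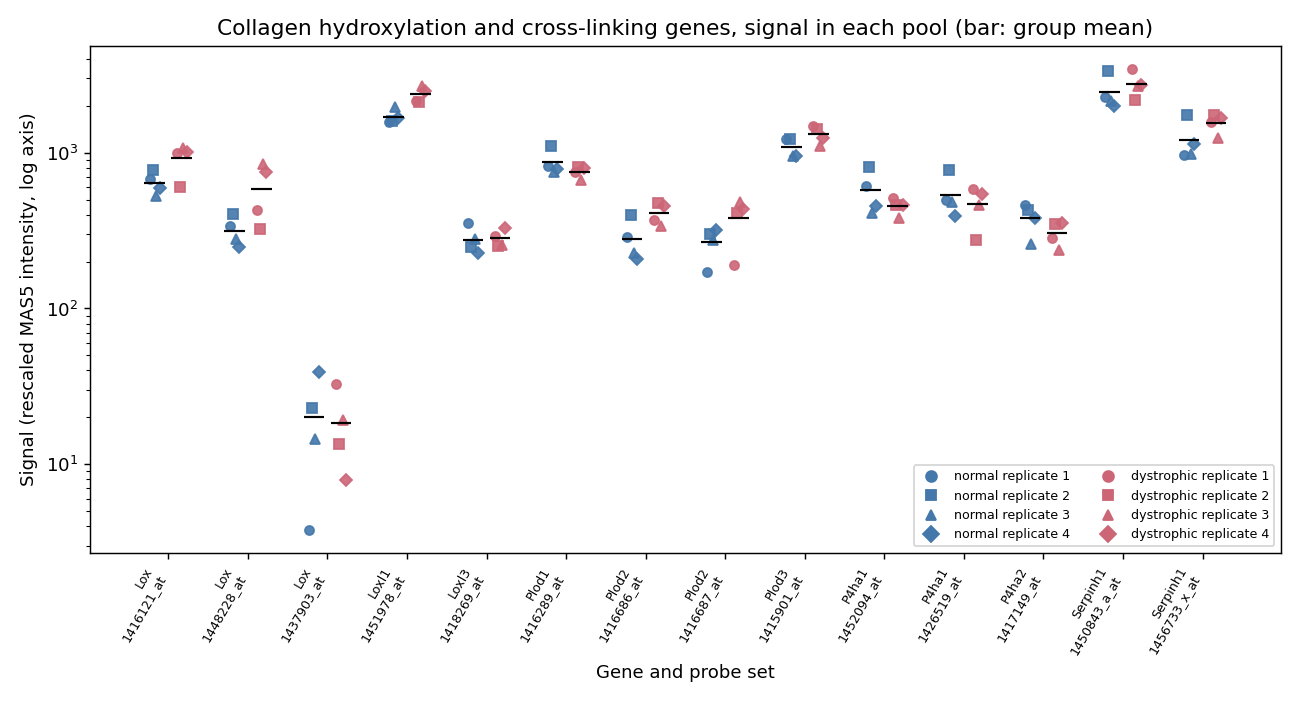
Signal of each of the 14 member probe sets (x axis, gene and probe set) in each pool (y axis, rescaled MAS5 intensity, log axis), with normal pools in blue, dystrophic pools in red, a marker shape per replicate number and a bar at each group mean. Loxl1 is the 1 tested member whose groups do not overlap, at 1564 to 1981 and 2126 to 2684, and the dimmest Lox probe set stays below 40 in every pool.

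Among the cross-linking enzymes, Loxl1 had a similar difference in each of 3 sets of arrays grouped by their spike-in signals. It encodes a lysyl oxidase relative best known for the renewal of elastic fibres. Its signal was 1564, 1608, 1981 and 1677 in normal replicates 1 to 4, and 2163, 2126, 2684 and 2507 in dystrophic replicates 1 to 4. Every dystrophic pool lay above every normal pool, a property of 6.4% of tested probe sets in either direction, and replicate 3 was the highest pool in both groups. The means were 1707 ± 188 and 2370 ± 271 (SD, n = 4), with a log2 difference of 0.47 (limma SE 0.13, 95% interval 0.18 to 0.75, adjusted p = 0.192). An exact two-sided permutation test of the 4 against 4 pools, run for each of the 14 probe sets, gave p = 0.0286 for Loxl1, unadjusted and the smallest this design allows. Signals of the spiked-in poly-A transcripts, which trace labelling, put the arrays in 3 sets: replicate 1, replicate 3, and replicates 2 and 4 of both groups. The sets, called spike-in batches below, were inferred from these signals alone, as the sample labels name no batch. Within them the Loxl1 difference was 0.46, 0.44 and 0.49. The first 2 of these values each compare 1 normal with 1 dystrophic pool. With the spike-in batch in the model the limma adjusted p of Loxl1 was 0.0872, the lowest of the settings tried. Without dystrophic replicate 3, the pool highest for the liver markers, the Loxl1 difference was 0.41 (limma adjusted p = 0.466).

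Lox encodes lysyl oxidase itself, the founding enzyme of the family, which acts on both collagen and elastin. Its brightest probe set (1416121_at) read 675, 778, 529 and 593 in normal replicates 1 to 4, and 1001, 605, 1068 and 1016 in dystrophic replicates 1 to 4. Of the dystrophic pools 3 lay above every normal pool, while dystrophic replicate 2 lay within the normal range. The means were 644 ± 108 and 922 ± 214 (SD, n = 4), and the log2 difference was 0.49 (limma SE 0.19, adjusted p = 0.445). With 1 pool left out it ran from 0.40 (normal replicate 3, adjusted p = 0.569) to 0.68 (dystrophic replicate 2, adjusted p = 0.177). The second probe set (1448228_at) read 337, 403, 278 and 248 in normal pools and 427, 326, 848 and 749 in dystrophic pools. Dystrophic replicates 3 and 4 stood above all other pools, and dystrophic replicate 2 was again within the normal range. Its means were 317 ± 68.6 and 587 ± 250 (SD, n = 4), with a log2 difference of 0.78 (limma SE 0.28, adjusted p = 0.364), and without normal replicate 4 and dystrophic replicate 3 together it was 0.47. Within the spike-in batches the brightest probe set differed by 0.56, 0.99 and 0.20 and the second by 0.33, 1.56 and 0.62. The third probe set (1437903_at) lay at 3.80 to 39.2 over the 8 pools, close to the TrpnX negative controls, which reached 32.2, and is not described further.

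Loxl3 encodes a lysyl oxidase relative needed for the palate and the spine in development. It lay at 226 to 353 in normal and 253 to 330 in dystrophic pools, so the dystrophic range sat inside the normal one. Its log2 difference was 0.04 (95% interval -0.33 to 0.41, limma adjusted p = 0.964), and ran from -0.04 to 0.16 with 1 pool left out.

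The 3 lysyl hydroxylases had log2 differences on both sides of 0, none of which passed. Plod2 encodes the enzyme that hydroxylates lysines in the ends of the collagen chains, where cross-links form. Its brighter probe set (1416686_at) read 290, 398, 229 and 208 in normal replicates 1 to 4, and 368, 475, 338 and 452 in dystrophic replicates 1 to 4. Normal replicate 2 lay among the dystrophic pools, and the other 3 normal pools lay below all of them. The means were 281 ± 85.6 and 408 ± 65.7 (SD, n = 4), with a log2 difference of 0.54 (limma SE 0.20, adjusted p = 0.403). With 1 pool left out it ran from 0.42 (normal replicate 4, adjusted p = 0.602) to 0.72 (normal replicate 2, adjusted p = 0.203). The other Plod2 probe set (1416687_at) read 171, 302, 275 and 319 in normal and 190, 411, 484 and 438 in dystrophic pools. Here replicate 1 was the lowest pool of both groups, and the other 3 dystrophic pools lay above every normal pool. The log2 difference was 0.45 (limma SE 0.28, adjusted p = 0.67), and by spike-in batch 0.14, 0.78 and 0.43, beside 0.33, 0.53 and 0.65 for the brighter probe set. Without normal replicate 1 the 1416687_at difference was 0.26, and without dystrophic replicate 1 it was 0.73. Every one of these 6 within-batch values lay above 0.

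Plod3 encodes a lysyl hydroxylase that also attaches sugars to hydroxylysine. It read 1228, 1224, 953 and 960 in normal and 1481, 1429, 1102 and 1252 in dystrophic replicates 1 to 4. In both groups replicates 1 and 2 were the highest pools, and the groups overlapped. The means were 1091 ± 156 and 1316 ± 173 (SD, n = 4), with a log2 difference of 0.27 (limma SE 0.15, adjusted p = 0.598), with 0.27, 0.21 and 0.30 within the spike-in batches. Plod1 encodes the lysyl hydroxylase of the helical part of the chains, whose loss in humans causes a form of Ehlers-Danlos syndrome with weak muscles and a curved spine. It read 827, 1101, 756 and 788 in normal and 748, 810, 664 and 795 in dystrophic pools. Normal replicate 2 stood above the rest, and the remaining 7 pools were intermixed between 664 and 827. The log2 difference was -0.19 (95% interval -0.51 to 0.13, limma adjusted p = 0.745), and -0.07 without normal replicate 2.

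P4ha1 and P4ha2 encode catalytic α subunits of prolyl 4-hydroxylase. Their promoters are shown because the differences of all their probe sets lay below 0, without passing the test. This choice was made after the values were seen, and the promoter of Plod1, which also lay below 0, is not printed. In cultured cells both genes are induced by low oxygen through the hypoxia-inducible factors, whose core sites are ACGTG and GCGTG. The 250 bases before the start of each gene follow, from RefSeq (GRCm38.p6), 5′ to 3′ in the direction of transcription. The capitals mark a core site on the printed strand or its reverse complement (CACGT or CACGC), and no site overlaps another.
P4ha1 (chr10:59323046-59323295, plus strand): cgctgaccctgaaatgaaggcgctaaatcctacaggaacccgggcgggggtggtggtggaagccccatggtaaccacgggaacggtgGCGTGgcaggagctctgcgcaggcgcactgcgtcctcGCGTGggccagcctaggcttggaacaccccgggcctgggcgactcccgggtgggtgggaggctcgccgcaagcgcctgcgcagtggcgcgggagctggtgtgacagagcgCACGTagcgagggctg
P4ha2 (chr11:54100674-54100923, plus strand): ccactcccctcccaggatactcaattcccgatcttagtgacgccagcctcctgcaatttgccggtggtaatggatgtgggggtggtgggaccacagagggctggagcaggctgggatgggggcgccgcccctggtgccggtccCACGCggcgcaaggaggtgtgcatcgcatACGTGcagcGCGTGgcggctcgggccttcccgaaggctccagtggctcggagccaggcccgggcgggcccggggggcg
Each window held 3 matches, 2 on the printed strand and 1 on the other, and 6.69% of 27025 genes in the same RefSeq table held 3 or more in their own 250 bases. The windows are rich in G and C, at 69.6% and 70.0%, and at least 1 match was found for 38.6% of all genes. Of the members, the promoters of 5 were searched, and the other 3 of these held 4 matches (Plod3), 1 (Plod1) and 1 (Serpinh1). Loxl1, Loxl3 and Plod2 had no promoter entry by symbol. Lox was left out of the search, so its promoter is not described. A match describes letters only, and no binding was measured.

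The P4ha1 probe set 1452094_at read 609, 816, 411 and 458 in normal replicates 1 to 4, and 512, 459, 382 and 463 in dystrophic replicates 1 to 4. The dystrophic pools were close together, and normal replicates 1 and 2 lay above all of them. The means were 573 ± 182 and 454 ± 53.8 (SD, n = 4), with a log2 difference of -0.28 (limma SE 0.20, 95% interval -0.73 to 0.16, adjusted p = 0.71), and -0.10 without normal replicate 2. The other probe set (1426519_at) read 496, 770, 484 and 390 in normal and 586, 274, 461 and 540 in dystrophic pools. The lowest pool of all was dystrophic replicate 2 and the highest normal replicate 2, and the rest were intermixed. Its log2 difference was -0.21 (limma SE 0.25, adjusted p = 0.858), and 0.02, above 0, without dystrophic replicate 2. It was -0.02 without normal replicate 2, -0.34 without normal replicate 4 and -0.33 without dystrophic replicate 1. P4ha2 read 462, 429, 260 and 383 in normal and 282, 350, 239 and 356 in dystrophic pools. Replicate 3 was the lowest pool of both groups, and 3 normal pools lay above all dystrophic ones. Its means were 383 ± 88.3 and 307 ± 56.4 (SD, n = 4), with a log2 difference of -0.29 (limma SE 0.20, 95% interval -0.73 to 0.14, adjusted p = 0.691). Its values by spike-in batch were -0.68, -0.12 and -0.19. Leaving out normal replicate 3 moved the P4ha2 difference to -0.46, and leaving out dystrophic replicate 3 moved it to -0.19.

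Serpinh1 encodes Hsp47, the chaperone that serves procollagen and few other proteins. Its brighter probe set (1450843_a_at) read 2279, 3347, 2161 and 2008 in normal and 3450, 2184, 2674 and 2728 in dystrophic replicates 1 to 4. Replicate 2 was the highest normal pool and the lowest dystrophic pool, so the ranges overlapped almost fully. The means were 2449 ± 609 and 2759 ± 522 (SD, n = 4), with a log2 difference of 0.18 (limma SE 0.18, adjusted p = 0.816), with 0.60, 0.30 and -0.09 within the spike-in batches. It moved to 0.07 with dystrophic replicate 1 left out and 0.10 with normal replicate 4 left out, and was 0.34 and 0.29 without replicate 2 of the normal and of the dystrophic group. The other probe set (1456733_x_at), of a kind whose probes can also match related transcripts, read 971, 1754, 978 and 1140 in normal and 1566, 1757, 1241 and 1660 in dystrophic pools. Apart from normal replicate 2, every normal pool lay below every dystrophic pool. The log2 difference was 0.39 (limma SE 0.19, adjusted p = 0.551). With 1 pool left out it ran from 0.30 (normal replicate 1, adjusted p = 0.625) to 0.58 (normal replicate 2, adjusted p = 0.244).

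**Figure D2:**
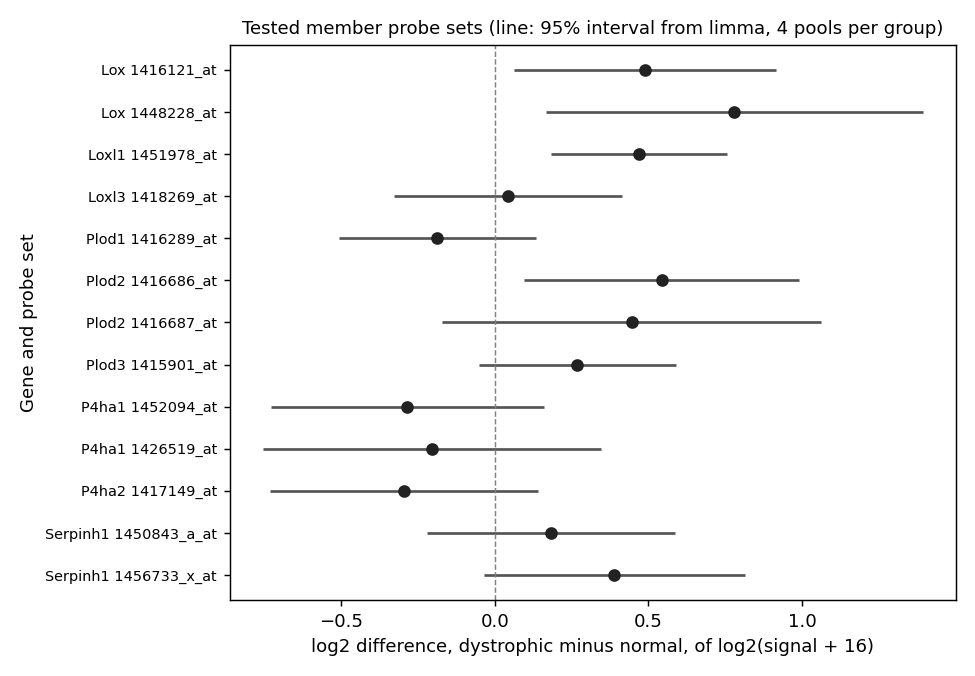
log2 difference, dystrophic minus normal (x axis), of the 13 tested member probe sets (y axis), with points for the estimate and lines for its 95% interval from limma, 4 pools per group. The intervals of both tested Lox probe sets, Loxl1 and the brighter Plod2 probe set lie above 0 before adjustment, and those of both P4ha1 probe sets and of P4ha2 span 0.

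Some pools were extreme for several members at once. Normal replicate 2 was the highest normal pool for 8 of the 13 tested probe sets: both of Lox, both of P4ha1, both of Serpinh1, Plod1 and the brighter of Plod2. It was the lowest for 0 of them. Normal replicates 3 and 4 were each the lowest for 5. In the dystrophic group, replicates 2 and 3 were each the lowest for 6. Hspa5, the general chaperone of the endoplasmic reticulum, read 6198, 5592, 3594 and 5158 in normal replicates 1 to 4, and 7405, 3908, 3558 and 4285 in dystrophic replicates 1 to 4. Its lowest dystrophic pools were also replicates 2 and 3, and its highest normal pool was replicate 1, not replicate 2.

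None of the other tested genes that prepare collagen passed. The list holds 31 genes of collagen folding, sugar addition, secretion, end trimming and turnover. Of these 23 had a probe set and 20 were tested. limma called 0 of the 20, against 0.645% of all tested genes, a share at which 0 of 20 does not set the list apart, and 5 had an unadjusted p under 0.05, all 5 higher, against 6.57% of genes in that direction. Of the 20 differences 17 lay above 0, and the median was 0.21, beside 0.18 for the 9 members taken by their brightest probe set and -0.01 for all tested genes. The 4 brightest were P4hb, Hspa5, Tgm2 and Tmem38b. P4hb, the β subunit that joins the P4ha chains, had a log2 difference of 0.15 (95% interval -0.16 to 0.46), so the partner of P4ha1 and P4ha2 did not pass either (limma adjusted p = 0.798). Hspa5 lay at -0.14, Tgm2, a transglutaminase that cross-links matrix proteins by another chemistry, at -0.07, and Tmem38b, an ion channel of the endoplasmic reticulum needed for collagen modification, at 0.27.

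In 5 of the 20 every dystrophic pool lay above every normal pool, against 4.7% of all tested genes. They were Ctsk, Ppib, Pcolce, P3h3 and Colgalt1, named after their values were seen. Ctsk, cathepsin K, a protease that degrades collagen, read 116, 167, 224 and 107 in normal and 297, 370, 425 and 286 in dystrophic pools. Its log2 difference of 1.12 (limma SE 0.23, adjusted p = 0.0645) was the largest of this list. Its adjusted p depended on the setting. It was 0.0248 with the spike-in batch in the model and 0.0334 without normal replicate 3. It was 0.141 with no filter, 0.209 without dystrophic replicate 3, and 0.329 without normal replicate 4 and dystrophic replicate 3 together. Ppib, cyclophilin B, which assists the folding of the collagen helix, lay at 1079 to 1838 in normal and 1912 to 2389 in dystrophic pools (log2 difference 0.54, limma adjusted p = 0.283). Pcolce, an enhancer of procollagen trimming, lay at 1427 to 2028 and 2054 to 2531 (0.39, adjusted p = 0.359). P3h3, a prolyl 3-hydroxylase family member, was at 0.36 and Colgalt1, which attaches galactose to hydroxylysine, at 0.24.

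Some collagens and fibril proteins passed the test. Of 18 tested collagens, elastic fibre and fibril proteins, 3 rose and 0 fell, against 0.645% of all tested genes called in either direction. The median log2 difference was 0.34. An unadjusted limma p under 0.05 was met by 9, all higher, against 6.57% of genes in that direction. In 7 every dystrophic pool lay above every normal pool, against 4.7% of all tested genes. Col1a2, a chain of collagen I, read 4099, 5242, 5108 and 3673 in normal and 7992, 8575, 8963 and 7622 in dystrophic pools. The groups lay far apart, at 4531 ± 766 and 8288 ± 597 (SD, n = 4), with a log2 difference of 0.88 (limma SE 0.14, adjusted p = 0.0167). Col6a3, a chain of collagen VI, rose by 0.79 (SE 0.12, adjusted p = 0.0146), and the small proteoglycan Lum by 1.24. Col1a2 no longer passed when normal replicate 1 or any of dystrophic replicates 2 to 4 was left out (highest adjusted p 0.0785), nor Col6a3 when dystrophic replicate 2 or 3 was (highest adjusted p 0.0613). With both normal replicate 4 and dystrophic replicate 3 left out, neither passed (adjusted p = 0.0861 and 0.114). Col1a1, also a chain of collagen I and named after its values were seen, had a larger log2 difference than Col1a2, at 1.1996. It did not pass (limma SE 0.36, adjusted p = 0.248). Its groups overlapped, at 1250 to 3329 in normal and 2375 to 6873 in dystrophic pools, with dystrophic replicate 1 the lowest of its group. Eln, elastin, the main substrate of Loxl1, named after its values were seen, read 1215 to 1672 in normal and 1256 to 1741 in dystrophic pools and did not pass (log2 difference 0.10, 95% interval -0.23 to 0.43, adjusted p = 0.893). Col1a2 and Lum are also among the 3 fibroblast markers that rose.

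**Figure D3:**
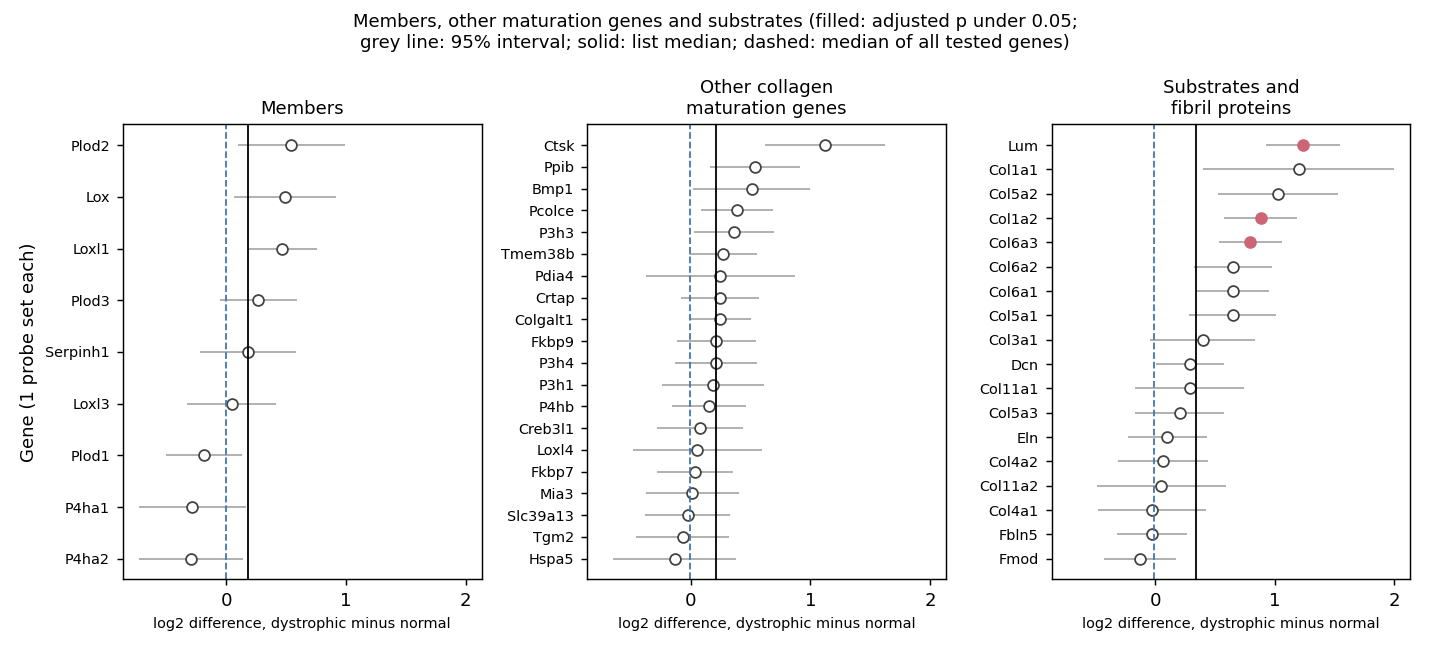
log2 difference, dystrophic minus normal (x axes), of the tested genes (y axes, 1 probe set each) among the members, the other collagen maturation genes, and their substrates and fibril proteins. Filled points passed at an adjusted p under 0.05, grey lines are 95% intervals, solid lines mark the list medians of 0.18, 0.21 and 0.34, and the dashed line marks the median of all tested genes; the filled points are Lum, Col1a2 and Col6a3.

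The level of each member was also set against Col1a2 in the same pool, as a description. The measure is the log2 value of the member minus that of Col1a2, and a shift in it shows unequal change only. Col1a2 was chosen after its rise of 0.88 had been seen, so each shift equals the difference of the member less that rise, and all 13 lay below 0, as did 98.7% of all tested probe sets. In 6 of the 13 the groups did not overlap: Loxl3, Plod1, Plod3, both probe sets of P4ha1, and P4ha2. Since Col1a2 itself rose, 77.4% of all tested probe sets were lower against it without overlap, so 6 of 13 is below the share of probe sets in general. The largest shifts were those of P4ha2, at -1.18, P4ha1, at -1.17 and -1.09, and Plod1, at -1.07. P4ha2 lay between -4.21 and -3.11 in normal and between -5.14 and -4.36 in dystrophic pools. The smallest were those of Lox, at -0.10 and -0.39, Plod2, at -0.34 and -0.44, and Loxl1, at -0.41, whose groups overlapped.

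**Figure D4:**
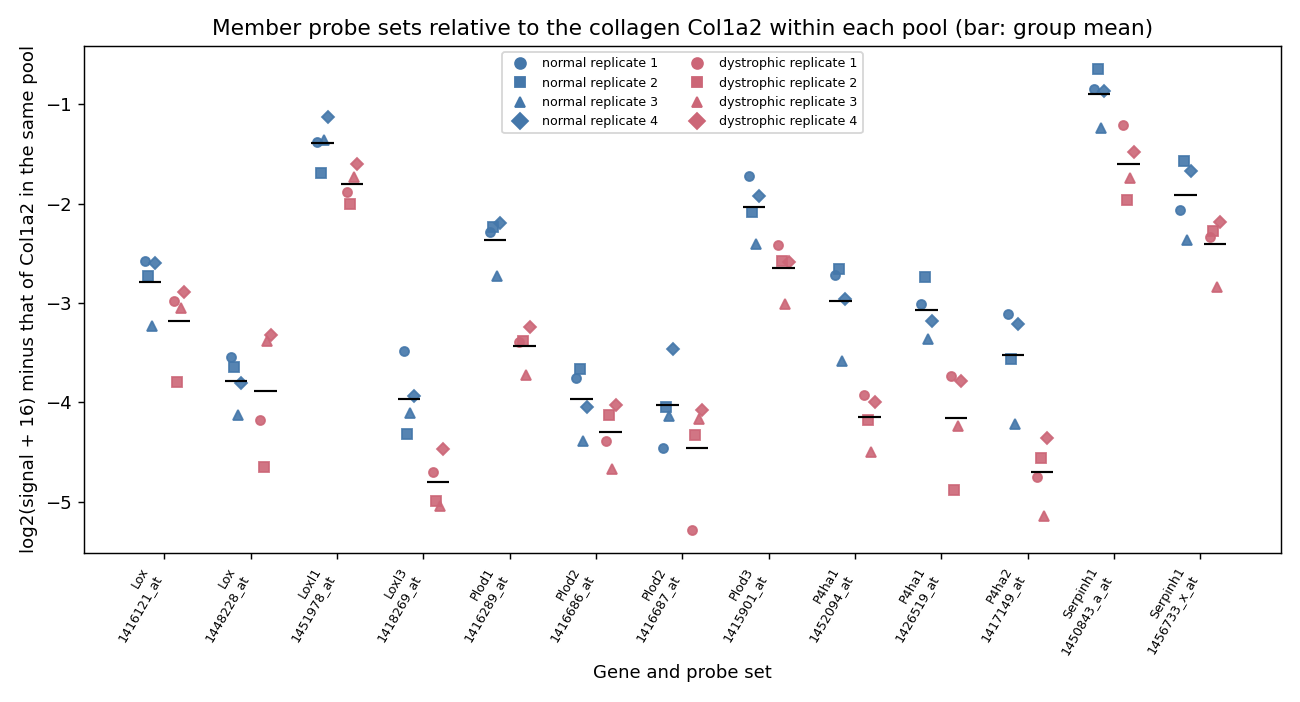
log2(signal + 16) of each of the 13 tested member probe sets (x axis) minus that of Col1a2 in the same pool (y axis), with normal pools in blue, dystrophic pools in red and a bar at each group mean. Since Col1a2 rose by 0.88, every red bar lies below its blue bar, by a shift of -0.10 for a Lox probe set to -1.18 for P4ha2.

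The genes whose pattern over the 8 pools was most like that of Loxl1, the member with the smallest p, were Cbr3, Sertad1, Plxdc2, Arpp21 and Rab34 among 8206 other tested genes. Pearson's r of the log2 values was 0.98, 0.976, 0.97, 0.97 and 0.955 in that order. After the group means were subtracted it was 0.918, 0.946, 0.897, 0.884 and 0.814. The pools share array, RNA and scaling, and the 5 were selected as the highest of many. None of the 5 passed the test, with limma adjusted p from 0.125 to 0.321.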

How the data were processed

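The deposited values are linear signal intensity values, which the authors made with MAS5 per the submitters' processing notes. Its version and the detection calls were not given in those sources. Trimmed means (2% off each end) were 500.2 for 7 arrays but 400.2 for normal replicate 4, so every array was rescaled to 487.7, and signals are these rescaled values. limma 3.58.1 in R 4.3.3 (lmFit, eBayes with an intensity trend) was fitted to log2(signal + 16), where the offset of 16 makes changes of dim probe sets smaller. The 64 controls and the lowest 40% by mean value were dropped and 13576 probe sets tested, over which p-values were adjusted (Benjamini-Hochberg, threshold 0.05). With 4 arrays per group, their number limits the precision.

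Symbols came from the platform annotation, updated through Entrez identifiers where possible (20351 of 20380). Other genes were taken by their brightest probe set (8215 tested genes). All single-symbol probe sets of the 10 listed genes are described, which leaves out Loxl2. From the other lists, the called genes or else the 4 brightest are named by rule. Eln, Col1a1 and 5 maturation genes whose groups did not overlap were added after their values were seen. The members and lists were chosen with earlier results of these data known. The code was tested on simulated data, where 15 of 50 probe sets changed 1.5-fold were recovered, and 32 of 50 changed 2-fold. Figures used matplotlib 3.10.9 in Python 3.11.15.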

Additional observations from a re-analysis of the deposited data

Results flagged for a closer look

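The Lox signal (1416121_at) of dystrophic replicate 2, at 605, stood far from the other 3 dystrophic pools, which lay between 1001 and 1068. The gap was 0.856 of the range of the group, above Dixon's 95% critical value. This was the 1 such case among 28 groups of 4 pools examined. Chance gives such a case in about 5% of groups.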

How the results depend on the processing

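Under every alternative tried, 0 member probe sets passed. These were an offset of 64 or 1, deposited values without rescaling, a shift to a common 75th percentile or quantile normalization, a filter of 60% or none, arrays weighted, robust eBayes or eBayes without a trend, the replicate block, the spike-in batch in the model or on its own, each array left out in turn, and normal replicate 4 and dystrophic replicate 3 left out together. Both tested Lox probe sets, Loxl1, Plod3 and both Plod2 probe sets lay above 0, and Plod1, P4ha2 and P4ha1 (1452094_at) below 0, in all of these. Loxl3 (-0.04 to 0.28), P4ha1 (1426519_at, -0.49 to 0.02) and Serpinh1 (1450843_a_at, -0.09 to 0.34) changed sign.

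Of the other maturation genes, 1 (Ctsk) passed with the replicate block, with the spike-in batch in the model and on the mean of all probe sets of a gene, and 0 to 1 with 1 array left out. Substrate genes that passed numbered 5 with array weights, 5 with the replicate block, 6 with the spike-in batch in the model, 0 within the batch of replicates 2 and 4, 1 without normal replicate 4 and dystrophic replicate 3 together, and 1 to 4 with 1 array left out. The cause of these changes was not tested, and some of these settings also have fewer arrays. Over all probe sets, 67 passed in the main setting, 127 with array weights, 105 with the replicate block, 114 with the spike-in batch in the model, 6 within that batch, 31 without both arrays, and 25 to 60 with 1 array left out. Same-numbered pools deviated together with r of 0.484, -0.05, 0.145 and 0.133. The highest r of each normal pool with a differently numbered pool was -0.13, 0.157, 0.127 and 0.16. The same-numbered pool was thus the closer one for replicates 1 and 3, and not for replicates 2 and 4. As the labels state no pairing either, the replicate number was used as a block only in the alternative setting.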
